A study of Mus musculus with 20 samples.

Results

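The immediate early genes Fos, Fosb, Jun, Junb, Jund, Egr1, Atf3, Ier2, Myc and Zfp36 were followed across 2 muscles, extraocular and leg, and 2 genotypes, control and mdx. Every probe set whose platform gene symbol was one of these names was taken, which gave 14 probe sets of 10 genes among 12654 probe sets on the array. They are 10 of 8220 genes that a probe set with a single symbol represented, and 8 of them could be tested. Total RNA of each sample was measured on its own Affymetrix array, with 1 colour, 5 arrays in each of 4 groups and 20 in all. The mdx mouse, a model of Duchenne muscular dystrophy, lacks functional dystrophin, the product of Dmd, at the muscle fibre membrane, and its limb muscles degenerate and regenerate while its extraocular muscles are largely spared. The comparisons asked how dystrophin deficiency alters each muscle and whether the 2 muscles respond differently.

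All mice were 8 weeks old. The groups were extraocular muscle (EOM) of control mice, EOM of mdx mice, leg muscle of control mice and leg muscle of mdx mice. The control leg samples were labelled as gastrocnemius and soleus, whereas the mdx leg samples were labelled only as leg muscle, so the muscles dissected may not be the same. The mdx arrays carry a different description label from the control arrays, so genotype and whatever that label marks cannot be told apart. The labels name neither strain nor number of animals, and do not say that arrays of a group came from separate mice. The p-values therefore measure the spread between these arrays, which may be technical.

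Immediate early genes are transcribed within minutes of a stimulus, without new protein synthesis, when kinase cascades activate factors such as SRF, the ternary complex factors and CREB that already sit at their promoters. Their mRNAs are short-lived, and in skeletal muscle they are known to respond to contraction, stretch and injury, including the handling of the tissue at dissection. Fos and Jun proteins pair as the transcription factor AP-1, Egr1 is a zinc finger factor induced by serum and growth factors, Atf3 is a stress-induced leucine zipper factor that binds AP-1 and CRE sites, and Myc drives growth and ribosome production. Ier2 encodes a nuclear protein of the same early response. Zfp36 (tristetraprolin) is not a transcription factor but an RNA-binding protein that destabilises mRNAs with AU-rich elements.

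The promoters of Junb and Atf3, which rose in mdx leg muscle, and of Fos, the best-known member of the group, are shown as the 250 bases before the annotated gene start, 5′ to 3′ on the gene's own strand, from RefSeq on GRCm38.p6. Capitals mark the CRE half-site TGACG, or its reverse complement, and the TATA element TATAAA. The windows are chr8:84978749-84978998 on the minus strand for Junb, chr1:191183334-191183583 on the minus strand for Atf3 and chr12:85473640-85473889 on the plus strand for Fos.
Junb: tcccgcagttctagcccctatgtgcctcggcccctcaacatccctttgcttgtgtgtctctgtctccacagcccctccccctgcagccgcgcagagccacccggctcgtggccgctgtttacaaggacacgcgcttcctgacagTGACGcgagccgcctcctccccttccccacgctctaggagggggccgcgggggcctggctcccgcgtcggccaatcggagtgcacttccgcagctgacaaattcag
Atf3: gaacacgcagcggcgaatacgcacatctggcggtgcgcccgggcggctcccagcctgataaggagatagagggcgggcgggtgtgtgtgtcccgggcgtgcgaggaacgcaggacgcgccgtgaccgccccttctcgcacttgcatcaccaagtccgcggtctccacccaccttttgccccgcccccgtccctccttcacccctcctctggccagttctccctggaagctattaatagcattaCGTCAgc
Fos: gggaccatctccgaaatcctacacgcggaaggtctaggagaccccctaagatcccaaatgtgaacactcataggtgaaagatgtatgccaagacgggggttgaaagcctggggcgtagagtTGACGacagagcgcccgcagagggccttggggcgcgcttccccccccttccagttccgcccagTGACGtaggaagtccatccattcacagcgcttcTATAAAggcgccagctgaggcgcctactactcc

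A promoter entry was found for 7 of the 10 members, and Egr1, Ier2 and Myc were not used here. The motifs were searched on both strands, with the half-site contained in the whole CRE. The half-site TGACG was in 4 of the 7 windows, those of Junb, Atf3, Fos and Fosb, against 17.8% of 32851 mouse promoters of the same length. It was looked for after the whole CRE, TGACGTCA, was in 0 of the 7 windows, against 1.55% of all promoters. In Junb the half-site lay at -106 to -102 from the gene start. In Atf3 its reverse complement lay at -7 to -3. Fos held it at -129 to -125 and at -66 to -62, and was the 1 member with TATAAA, at -33 to -28, an element in 12.4% of all promoters. The AP-1 site TGANTCA was in 0 of the 7 windows (6.75% of all), the EGR site GCGNGGGCG in those of Fosb and Zfp36 (4.7% of all), and the CArG box, the core of the serum response element, in that of Zfp36 (1.47% of all). These matches describe letters only, and bases outside the 250-base windows were not searched, so a site there would be missed.

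Values below are the authors' intensities, rescaled so that the trimmed mean of each array was 500, and are called signal. Differences are in log2 of that signal with values under 50 set to 50, so folds of dim probe sets are understated and are given as "at least" where an array of the dimmer group lay under 50. Levels are compared only within a probe set, since different probe sets have different affinities. Of the 14 member probe sets, 9 of 8 genes passed the filter on dim signal and were tested among 7204, and a member could pass through 1 bright group alone. Junb 102362_i_at reached 200 on 9 arrays, among them all 5 mdx leg arrays, and would not have passed without that group. The single probe sets of Fos and Myc, 2 of the 3 of Atf3 (104156_r_at and 97035_i_at) and 1 of the 2 of Egr1 (98216_f_at) did not pass. Letters such as f, i, r and s in a name mark probe sets that the array's maker built with relaxed rules or knew to be less specific, so a named probe set may not measure its gene alone.

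On 20 arrays, the 6 skeletal muscle markers that could be measured were bright in all groups, and 0 of 6 passed the test in leg muscle (0 at an unadjusted p under 0.05). The extraocular myosin gene Myh13 was not measured here. The Dmd probe set read 77.5 ± 32.3 in mdx leg muscle against 149 ± 40.2 in control leg muscle (SD, n = 5), and 119 ± 31.7 against 268 ± 47.4 in EOM, although mdx mice can still make Dmd mRNA. Of the control leg arrays, array 1 had the highest summed muscle signal (99853, against a median of 47517), and array 4 had epithelium and gland markers summing to 10770, against at most 2824 on the other 4. Results that rest on these arrays are given with and without them.

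In leg muscle, 4 of the 9 tested member probe sets, of the 3 genes Junb, Atf3 and Ier2, were higher in mdx mice and 0 were lower. Over all 7204 probe sets tested, 10.7% were higher and 7.15% lower by the same rule (limma, Benjamini-Hochberg adjusted p under 0.05). The median difference of the 9 was 0.47, beside -0.06 over all probe sets. Junb had the largest difference, at least 8.56-fold and at least 4.12-fold by its 2 probe sets. Fosb, Jun, Jund, Egr1 and Zfp36 were not called. In these whole-muscle samples, fewer cells of a type and less RNA per cell cannot be told apart.

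**Figure D1:**
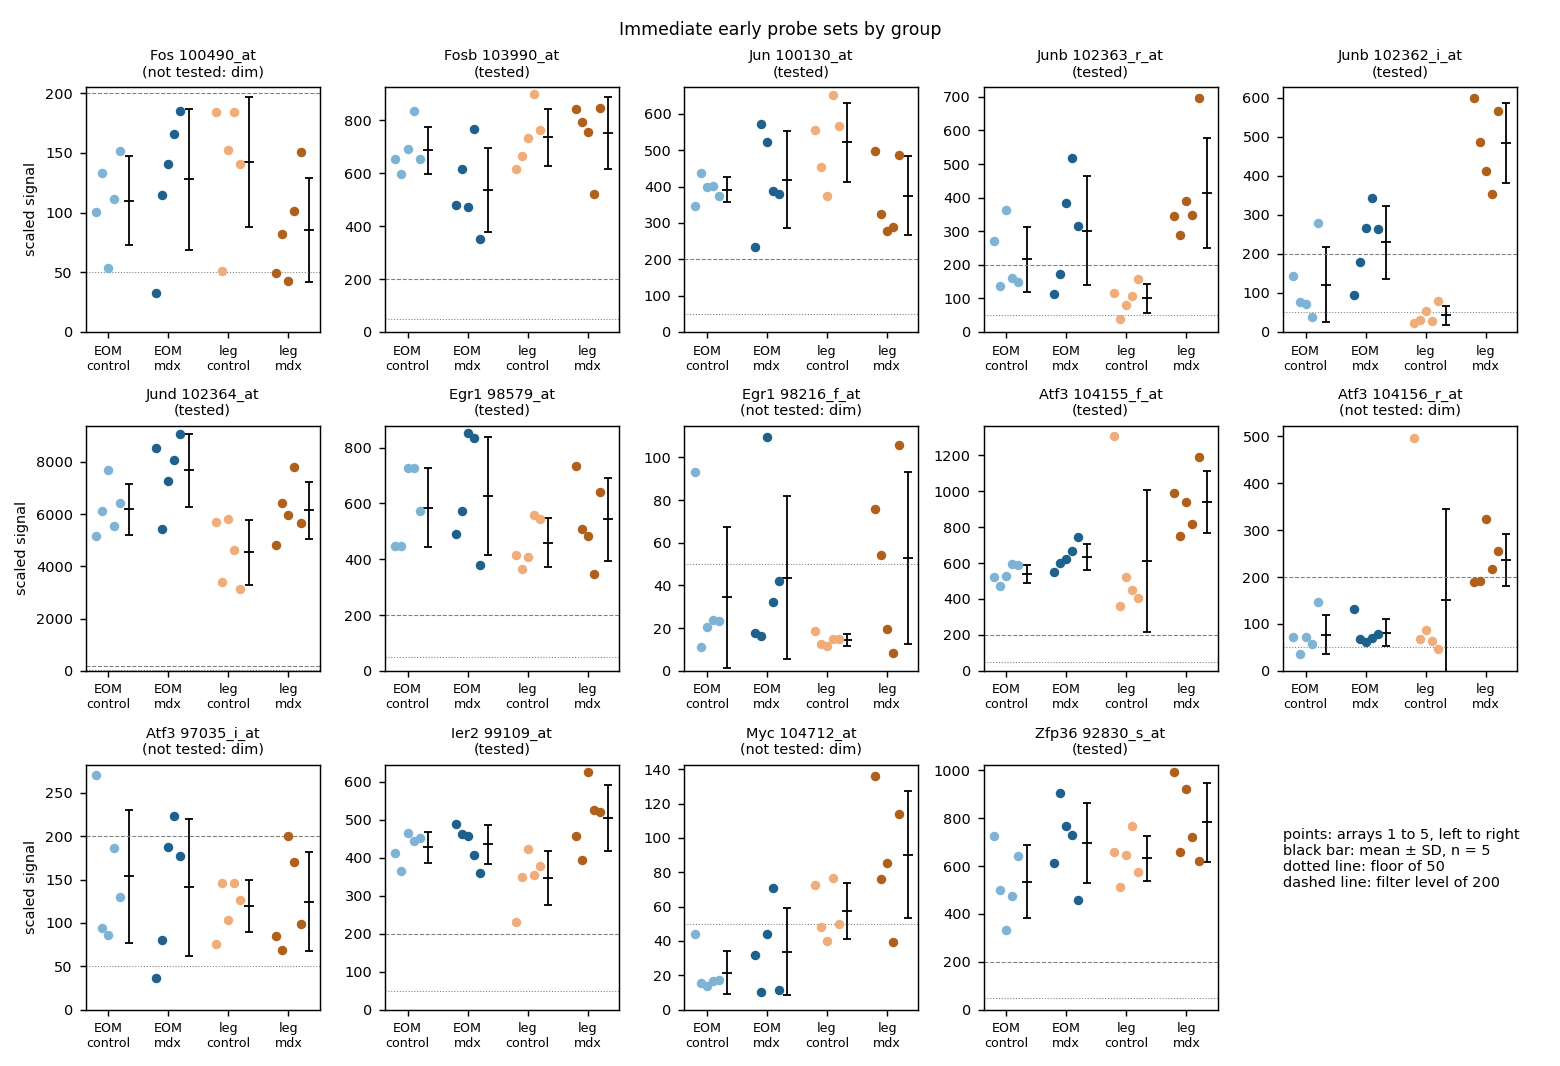
Signal of the member probe sets on each of the 20 arrays (points; linear axis from 0), with group means and SD bars (n = 5), in control and mdx extraocular and leg muscle. The 5 mdx leg arrays of both Junb probe sets lie above the 5 control leg arrays, whereas Atf3 104155_f_at shows 1 control leg array, at 1309, above all others of its group. The SD bar of Atf3 104156_r_at in control leg muscle reaches below 0 and is cut there.

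Junb encodes an AP-1 subunit that is a weaker activator than Jun and is also known for holding back muscle atrophy. On probe set 102362_i_at, control leg arrays 1 to 5 read 23.0, 29.8, 53.2, 27.0 and 78.7. The mdx leg arrays read 599, 487, 412, 354 and 567. The groups did not overlap, but this probe set passed the filter only with its mdx leg arrays. The difference was 3.10 (SE 0.40, 95% interval 2.27 to 3.93, limma adjusted p = 6.83e-06), with means of 484 ± 103 and 42.3 ± 23.5 (SD, n = 5).

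On the other Junb probe set, 102363_r_at, control leg arrays read 117, 37.2, 80.5, 107 and 157. The mdx leg arrays read 347, 287, 391, 347 and 697, again with no overlap. The difference was 2.04 (SE 0.40, 95% interval 1.22 to 2.86, limma adjusted p = 0.000722). These were the 2 member probe sets whose leg groups did not overlap with mdx higher, as in 8.38% of all tested probe sets. Their log2 values correlated at r = 0.79 over the 20 arrays and 0.41 once group means were removed. Both calls held in the 11 other settings that gave a value and in all 20 fits without 1 array. The 102362_i_at difference ran from 2.25 with a floor of 100 to 3.65 with a floor of 20. That of 102363_r_at ran from 1.63 with a pseudocount of 50 to 2.22 without control leg array 5.

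Atf3 encodes a leucine zipper factor that rises with injury, endoplasmic reticulum stress and DNA damage. On 104155_f_at, control leg arrays read 1309, 362, 524, 448 and 405. The mdx leg arrays read 991, 749, 941, 816 and 1192. Control array 1 was above every mdx array and the other 4 control arrays were below all 5. The difference was 0.78 (SE 0.24, limma adjusted p = 0.0253), 1.72-fold, with means of 938 ± 172 and 610 ± 396 (SD, n = 5). Without control array 1 it was 1.10 (adjusted p = 1.97e-05).

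The Atf3 call was lost without control array 2 (adjusted p = 0.0779), 4 (0.0603) or 5 (0.0704), without mdx array 3 (0.0501) or 5 (0.0758), with no filter (0.0585) and with only the leg arrays in the fit (0.1). Over all settings its adjusted p ran from 1.97e-05 to 0.1. The second probe set, 104156_r_at, was too dim to be tested. It showed control array 1 at 496 and the other control arrays between 46.0 and 86.6, with the mdx leg arrays between 190 and 324. Its log2 values followed those of 104155_f_at (r = 0.84 over 20 arrays, 0.80 within groups), and in a fit without the filter it differed by 1.23 (unadjusted p = 0.0204). The third, 97035_i_at, did not follow them (r = -0.15) and differed by -0.02.

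Ier2 is an intronless early response gene whose protein acts in the nucleus. Control leg arrays read 230, 349, 422, 354 and 378. The mdx leg arrays read 456, 393, 625, 525 and 521. All mdx arrays but the second were above every control array. The difference was 0.55 (SE 0.17, limma adjusted p = 0.0246), 1.47-fold, with means of 504 ± 86.5 and 346 ± 71.3 (SD, n = 5). The call was lost without control array 1 (0.41, adjusted p = 0.0750), without mdx array 3 (0.0802), 4 (0.0524) or 5 (0.0527), with array weights (0.0689), with only the leg arrays in the fit (0.0852) and without control arrays 1 and 4 (0.151). Over all settings its adjusted p ran from 0.0148 to 0.151.

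Macrophage and fibroblast markers moved in the same comparison as Junb, Atf3 and Ier2. All 13 tested macrophage markers of 14 listed were higher in mdx leg muscle, and their summed signal ran from 39039 to 50216 against 3914 to 5739 in control leg muscle. Of 8 fibroblast markers 7 were higher, with sums of 45305 to 53380 against 23622 to 27921. Adgre1, a macrophage surface receptor, read 547 ± 210 against 114 ± 50.3, and none of these markers was at 0 on any array. The part of these cells in the Junb, Atf3 and Ier2 results was not tested. Neutrophil markers were higher for 1 of 4, endothelial markers lower for 1 of 7, smooth muscle markers higher for 1 of 5, and lymphocyte, Schwann cell and epithelial markers for 0 of 4, 0 of 2 and 0 of 4 (0 at an unadjusted p under 0.05 in each of the last 3).

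The remaining tested Jun and Fos family members were not called in leg muscle. Jund, an AP-1 subunit present in resting cells as well, read 6140 ± 1105 in mdx and 4532 ± 1254 in control leg muscle (SD, n = 5), a difference of 0.47 with overlapping groups (limma adjusted p = 0.0842). It passed with quantile normalization (0.65, adjusted p = 0.0133) and in 3 of 20 fits without 1 array (0.0412 to 0.0493, without control array 1 or 3 or mdx array 1), in a range of 0.0133 to 0.228 over all settings. Jun, the strongest AP-1 activator of its family, was the 1 tested member with a negative value, -0.50 (375 ± 108 in mdx, 522 ± 108 in control, adjusted p = 0.143). Fosb read 751 ± 135 and 736 ± 108, a difference of 0.02 (95% interval -0.36 to 0.40).

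Egr1 98579_at read 542 ± 150 in mdx and 458 ± 87.6 in control leg muscle, a difference of 0.22 with a 95% interval of -0.27 to 0.71 (limma adjusted p = 0.595). Zfp36 read 783 ± 165 and 632 ± 94.8, a difference of 0.30 with a 95% interval of -0.13 to 0.72 (adjusted p = 0.366). Intervals of this width do not show that these genes were alike in the 2 groups.

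Fos and Myc were too dim to be tested. Fos read 184, 51.5, 152, 184 and 141 on the control leg arrays. It read 49.7, 82.3, 42.6, 102 and 150 on the mdx leg arrays. The groups overlapped, and the difference in a fit without the filter was -0.71 (unadjusted p = 0.117), opposite in sign to that of Junb. Myc read 72.8, 48.2, 40.3, 76.6 and 49.9 on the control leg arrays. It read 136, 75.9, 85.6, 39.4 and 114 on the mdx leg arrays, a difference of 0.57 in the same fit (unadjusted p = 0.0142), with 3 control arrays and 1 mdx array under 50. In EOM 9 of the 10 Myc values were under 50. Egr1 98216_f_at, with 15 of 20 arrays under 50, had a difference of 0.36 in leg muscle (unadjusted p = 0.16).

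In EOM, 0 of the 9 tested member probe sets were called between mdx and control mice, and 2 had an unadjusted p under 0.05. Only 0.0833% of all tested probe sets, 6 of 7204, were called there (limma). The median difference of the members was 0.23, beside -0.02 over all probe sets. Junb 102362_i_at read 143, 76.4, 70.7, 38.1 and 279 in control EOM. It read 95.2, 179, 265, 343 and 263 in mdx EOM, so the groups overlapped, and the difference was 1.05 (SE 0.40, unadjusted p = 0.0156, adjusted p = 0.955). Fosb, the second of them, read 536 ± 159 in mdx and 686 ± 90.5 in control EOM, a difference of -0.40 (unadjusted p = 0.0422, adjusted p = 0.955).

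The remaining EOM differences were 0.39 for Junb 102363_r_at (limma adjusted p = 0.999) and 0.39 for Zfp36 (0.981). Jund differed by 0.30, Atf3 104155_f_at by 0.23, Egr1 by 0.06, Jun by 0.04 and Ier2 by 0.02, each with an adjusted p of 0.999. Groups did not overlap for 0 of the 9 members, as against 1.15% of all probe sets that did not overlap. Atf3 104155_f_at read between 472 and 593 on the control EOM arrays and between 551 and 742 on the mdx EOM arrays, a narrower spread than in leg muscle. The summed macrophage signal in EOM ran from 6405 to 8841 in control and from 6969 to 13960 in mdx mice, with 1 of 13 markers called higher.

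The test of the difference between the 2 muscles' mdx effects (leg minus EOM) called 1 of the 9 member probe sets, Junb 102362_i_at, while it called 6.22% of all tested probe sets. That Junb probe set passed the filter only with its mdx leg arrays. Its mdx effect was larger in leg muscle by 2.05 (SE 0.57, limma adjusted p = 0.032). The call was lost with no filter (adjusted p = 0.0649) and without control leg arrays 1 and 4 (0.0818). It was also lost in 7 of 20 fits without 1 array (0.0521 to 0.062, without control EOM array 1 or 5, mdx EOM array 1 or 2, or mdx leg array 1, 2 or 5). The other Junb probe set differed by 1.65 (adjusted p = 0.0925) and passed without mdx EOM array 4 (0.0473), in a range of 0.0473 to 0.18 over all settings.

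Atf3 104155_f_at had a larger leg effect by 0.55 (limma adjusted p = 0.429). Without control leg array 1 it was 0.87 (adjusted p = 0.013), and without control leg arrays 1 and 4 it was 0.89 (0.0205), so 1 array decided this value. Ier2 differed by 0.53 (adjusted p = 0.231), Fosb by 0.42 (0.436), Jun by -0.54 (0.407), Jund by 0.16 (0.809), Egr1 by 0.15 (0.866) and Zfp36 by -0.09 (0.913). The median of the 9 was 0.42, beside -0.02 over all probe sets. In the same test 12 of 13 macrophage markers and 6 of 8 fibroblast markers had a larger leg effect, and their part in the Junb result was not tested.

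**Figure D2:**
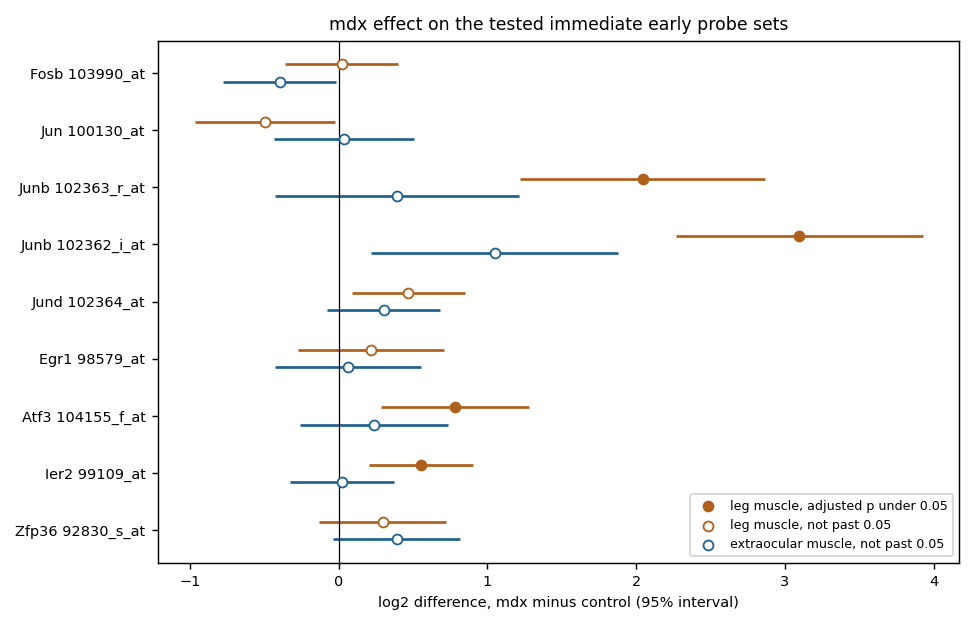
Difference between mdx and control mice (log2, points, with 95% intervals from the limma fit) for each member probe set in leg and in extraocular muscle. The intervals of both Junb probe sets in leg muscle, 2.27 to 3.93 and 1.22 to 2.86, lie farthest from 0.

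Between the muscles of control mice (EOM minus leg), 0 of the 9 member probe sets were called, and 3 had an unadjusted p under 0.05, while 17.7% of all tested probe sets were called (limma). These were Junb 102363_r_at at 1.07 (adjusted p = 0.0672), Junb 102362_i_at at 0.87 (0.15) and Jund at 0.48 (0.0742). Junb 102363_r_at passed with array weights (0.0163), and without control leg array 5 (0.0441) or mdx EOM array 1 (0.0432), in a range of 0.0163 to 0.184. Jund passed with quantile normalization (0.026), with array weights (0.0401), without control leg array 1 (0.0376) or 3 (0.038) and without control leg arrays 1 and 4 (0.0404), in a range of 0.026 to 0.209. Atf3 104155_f_at differed by 0.00 with an interval of -0.50 to 0.50, Ier2 by 0.33, Egr1 by 0.34, Jun by -0.39, Zfp36 by -0.28 and Fosb by -0.10.

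Between the muscles of mdx mice, Junb 102362_i_at was lower in EOM, the 1 call among the 9, by -1.18 (limma adjusted p = 0.0447). Of all tested probe sets, 8.83% were lower by that rule, and this Junb probe set passed the filter only with its mdx leg arrays. The call was lost at a floor of 20 (adjusted p = 0.0919) and with no filter (0.0803). It was also lost in 9 of 20 fits without 1 array (0.05 to 0.132, without any single mdx EOM array except 4, any mdx leg array except 4, or control leg array 3). EOM and leg arrays of mdx mice did not overlap for Junb 102362_i_at (at most 343 in EOM and at least 354 in leg) or for Atf3 104155_f_at (at most 742 and at least 749), 2 of 9 against 14.4% of all tested probe sets.

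The Atf3 104155_f_at difference between the mdx muscles was -0.55 (limma adjusted p = 0.124). It passed with array weights (0.0442), with only the mdx arrays in the fit (0.021), without control leg array 1 (0.00795) and without control leg arrays 1 and 4 (0.00954), in a range of 0.00795 to 0.255. Fosb, at -0.51 (0.0555), passed with a filter at 500 (0.0422) and without control leg array 1 (0.0495), mdx leg array 4 (0.0175) or mdx EOM array 4 (0.0125), in a range of 0.0125 to 0.158. The macrophage list, 13 of 13 lower in mdx EOM than in mdx leg muscle, moved with these values, and its part was not tested. For the dim probe sets, the fit without the filter gave -1.56 for Atf3 104156_r_at (limma unadjusted p = 0.00486) and 0.12 for 97035_i_at (0.785). Myc differed by -0.70 (0.00372), with 4 mdx EOM arrays under 50, Fos by 0.60 (0.187) and Egr1 98216_f_at by -0.13 (0.59).

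Ordered by mean signal, Junb 102362_i_at went from control leg (42.3) through control EOM (121) and mdx EOM (229) to mdx leg muscle (484), and the last step alone had no overlap of arrays. Junb 102363_r_at followed the same order with overlap at every step, from 99.8 through 216 and 301 to 414. Ier2 also followed it, from 346 through 427 and 435 to 504, with overlap at every step. Jund was lowest in control leg muscle and highest in mdx EOM, with 7673 ± 1411. Egr1 98579_at had its lowest mean in control leg (458) and its highest in mdx EOM (627), and Zfp36 ran from 535 in control EOM to 783 in mdx leg muscle. Fosb ran from 536 in mdx EOM to 751 in mdx leg muscle. Jun ran from 375 in mdx leg to 522 in control leg muscle, and Fos from 85.3 in mdx leg to 143 in control leg muscle, so these 2 members had their lowest means where Junb had its highest. Atf3 104155_f_at was highest in mdx leg muscle, with no overlap with mdx EOM, the next group by mean log2 value. Apart from that step and the last one of Junb 102362_i_at, neighbouring groups of every member probe set overlapped.

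Members induced by 1 stimulus might go up and down together from array to array, so log2 values were correlated over the 20 arrays after group means were removed. With Fos as the reference, through its untested probe set, 0 of 8 relations passed after Benjamini-Hochberg adjustment in permutation tests within groups. The highest were Junb at r = 0.44 (unadjusted p = 0.0815), Atf3 104155_f_at at 0.41 (0.152) and Jun at 0.38 (0.147), each with an adjusted p of 0.405 for r. Their rho was 0.38 (unadjusted p = 0.138), 0.47 (0.0479) and 0.28 (0.282), with adjusted p of 0.452, 0.383 and 0.452. At an unadjusted p under 0.05 the count for r was also 0. Without the 2 arrays farthest from the Fos median, r was 0.45 for Junb, 0.46 for Atf3 and 0.46 for Jun. Without the 2 farthest from their group means, which were also the 2 lowest Fos deviations, it was 0.055, 0.24 and 0.09, so these values rest on those 2 arrays.

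With Egr1 98579_at as the reference, chosen after the data were seen, 1 of 7 relations passed. Fosb and Egr1 deviated together from their group means, with r = 0.76 (permutation p = 0.00118, adjusted p = 0.00826) and rho = 0.68 (adjusted p = 0.0321). Without the 2 arrays farthest from the Egr1 median r was 0.84. Without the 2 whose deviations lay farthest from the median deviation it was 0.82. Without the 2 lowest Egr1 deviations, which were also the 2 farthest from their group means, it fell to 0.61. Those 2 were mdx leg array 4 and mdx EOM array 5. Mdx leg array 4, with the lowest Fosb of its group (520), also had the lowest Egr1 (345). Mdx EOM array 5 likewise had the lowest of both in its group, with 352 for Fosb and 378 for Egr1. Jun followed Egr1 at r = 0.56 (adjusted p = 0.12) and rho = 0.57 (0.072), and Junb at r = 0.47 (0.165) and rho = 0.42 (0.276). Dissection time, handling and array quality are shared by values of an array, and their part was not tested.

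**Figure D3:**
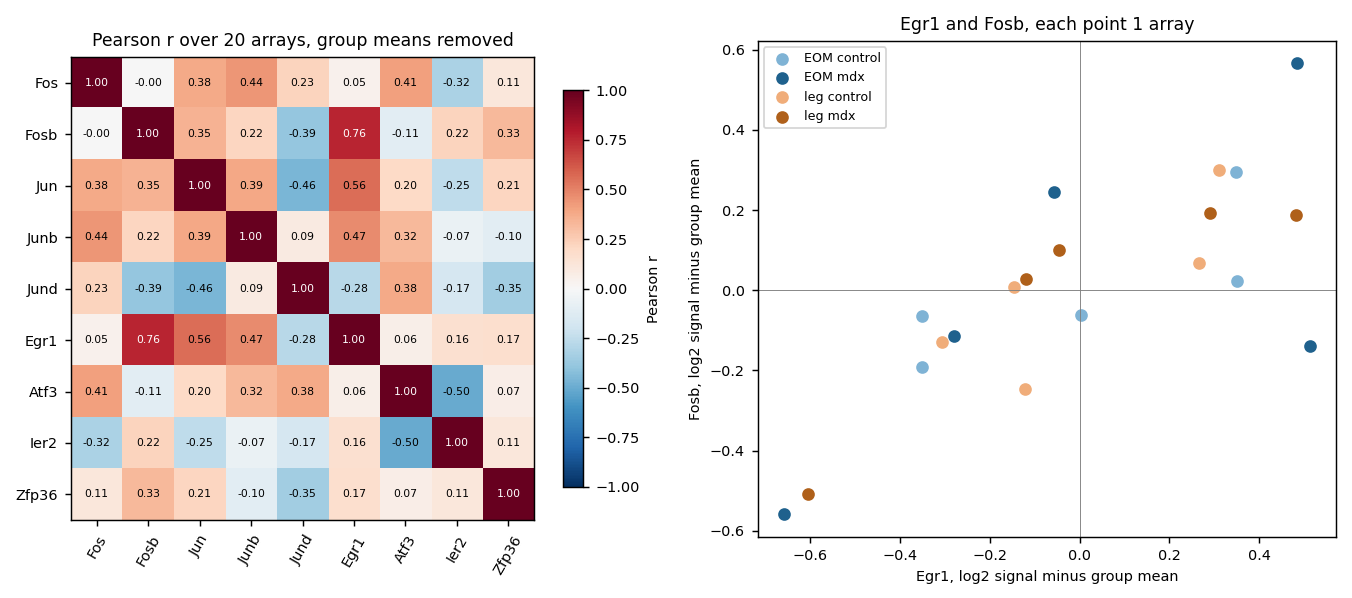
Left, Pearson r between members over the 20 arrays with group means removed (colour scale from -1 to 1). Right, log2 signal minus the group mean of Fosb against Egr1, 1 point per array. Fosb followed Egr1 within groups (r = 0.76), whereas Fosb and Fos did not move together (r = 0.00).

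The 5 genes outside the group whose log2 values, group means removed, were most like those of Fos over the 20 arrays were Las1l (r = 0.78), Lims1 (0.77), Lypla1 (0.73), Slc31a1 (0.72) and Mrpl18 (0.72), out of 6253 candidate probe sets. Fos was dim, with 3 of 20 arrays under 50, and no related immediate early gene was among them. These correlations are a description of the 20 arrays.

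The wider early response was followed in 6 lists, with each gene represented by its brightest tested probe set. Of 12 tested genes in the list of 21 other immediate early transcription factors, 2 were higher and 1 lower in mdx leg muscle, with a median of 0.09. Ier3, which was tested in this list and not called, is not itself a transcription factor. Klf6, a zinc finger factor of injured tissue, rose by 0.88 (1189 ± 204 against 646 ± 89.9, SD, n = 5, limma adjusted p = 0.000540). Egr2, the relative of Egr1 known from myelination, rose by 0.68 (369 ± 56.5 against 232 ± 39.4, adjusted p = 0.00949). Nr4a1, an orphan nuclear receptor induced by exercise, fell by 0.49 (1718 ± 305 against 2416 ± 465, adjusted p = 0.0476).

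Of 19 tested genes among 29 other immediate early genes, 7 were higher and 1 lower in mdx leg muscle, with a median of 0.25. Ccn2, the matrix-associated connective tissue growth factor, rose by 1.20 (limma adjusted p = 0.000355) and Btg1, an antiproliferative gene, by 1.20 (0.000851). Zfp36l1, a relative of Zfp36 in mRNA decay, rose by 1.03 (0.0011) and Gadd45a, a DNA damage response gene, by 0.95 (0.00163). Without control leg arrays 1 and 4 the list held 5 calls. Among 14 tested genes of the signalling list only Mapk14, the p38 alpha kinase, was called, and it fell by 0.39 (adjusted p = 0.0476). Among 14 tested dimer partners only Atf4, the factor of the integrated stress response, was called, and it fell by 0.54 (adjusted p = 0.00452).

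Of 8 tested genes among 15 textbook AP-1 targets, 5 were higher and 1 lower in mdx leg muscle, with a median of 1.52. Ccl2, a monocyte-attracting chemokine, rose 16.8-fold (1610 ± 777 against 92.5 ± 34.2, SD, n = 5, limma adjusted p = 4.82e-08). The matrix protease Mmp3 rose at least 7.70-fold (adjusted p = 4.17e-09), the protease inhibitor Timp1 5.63-fold (5.96e-08) and the metallothionein Mt2 5.17-fold (1.42e-08). Vim, the intermediate filament gene of mesenchymal cells, fell by 0.96 (196 ± 129 against 327 ± 75.0, adjusted p = 0.0359) and is named, outside the rule for naming genes, as the 1 decrease. Macrophages and fibroblasts also express several of these genes, and the part of those cells was not tested. Of 10 tested Myc targets 2 were higher, Npm1, a nucleolar chaperone, by 0.50 (adjusted p = 0.012) and the cell cycle kinase Cdk4 by 0.80 (0.0245).

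In EOM, where 0.0833% of all tested probe sets were called, mdx and control mice differed in 1 gene of the 6 lists. Mt2 rose 2.53-fold (6440 ± 1268 against 2598 ± 816, SD, n = 5, limma adjusted p = 0.00221). The unadjusted p was under 0.05 for 1 of 12 immediate early transcription factors, 1 of 19 other immediate early genes, 0 signalling genes, 0 dimer partners, 3 of 8 AP-1 targets and 1 of 10 Myc targets. The test of the difference between muscles called 6.22% of all tested probe sets. In it, Zfp36l1 had a larger effect in leg muscle by 1.32 (adjusted p = 0.00805). So had 5 AP-1 targets, led by Timp1 (2.20, 0.000176) and Mmp3 (1.91, 0.000548). None of the 12 immediate early transcription factors was called in that test, with 3 at an unadjusted p under 0.05 (limma).

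**Figure D4:**
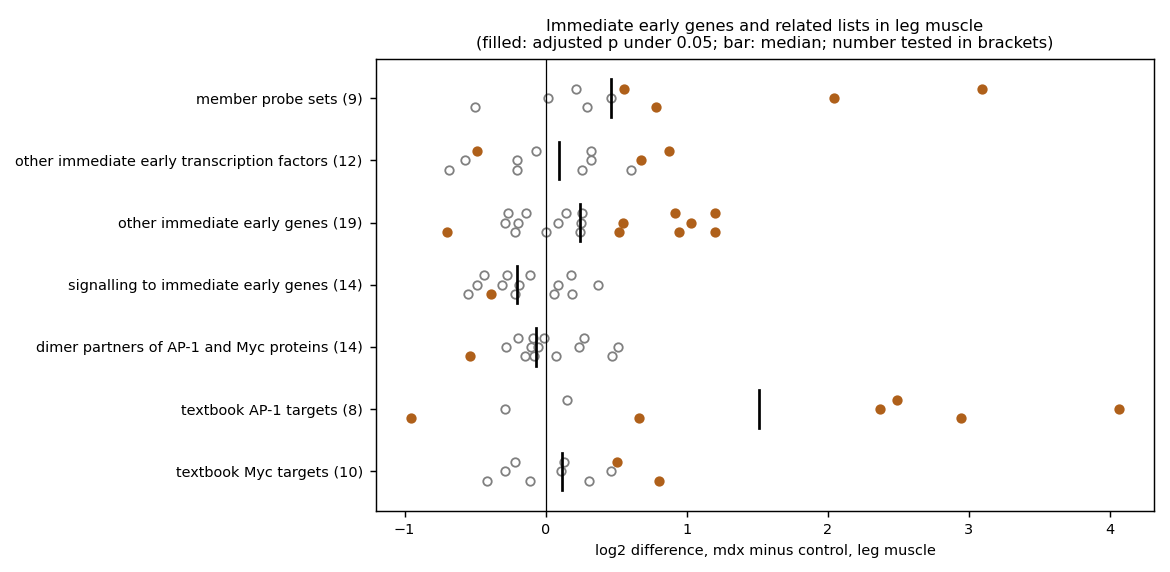
Difference between mdx and control leg muscle (log2) for the 9 tested member probe sets and each tested gene of the 6 related lists, filled where the adjusted p was under 0.05, with a bar at each median. The medians of the AP-1 targets (1.52) and of the members (0.47) lie farthest to the right, with Ccl2 at 4.07. Members are counted by probe set, with both of Junb, but lists by gene, so these medians are of unlike units.

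Between the muscles of control mice, where 17.7% of all tested probe sets were called, the list counts were described in the same way, with no test between lists. Of 10 Myc targets 0 were called, with 1 at an unadjusted p under 0.05 (limma). Of the 12 immediate early transcription factors, 3 were higher and 3 lower in EOM than in leg muscle. Nr4a1 was lower in EOM by -1.12 (1098 ± 122 against 2416 ± 465, SD, n = 5, limma adjusted p = 5.19e-05), Cebpb, a factor of inflammation and muscle repair, by -0.81 (0.00135) and the clock-linked repressor Bhlhe40 by -0.99 (0.00178). Klf4, a zinc finger factor, was higher in EOM by 1.26 (0.000477). Of the signalling list, 4 of 14 were lower in EOM, led by Mapk14 at -1.35 (2.11e-07), and of the other immediate early genes 5 were higher and 2 lower, among them Sgk1, a growth-factor-regulated kinase, at -1.10 (0.000173). In mdx mice Nr4a1 (-0.53, 0.031), Klf4 (0.75, 0.0259), Sgk1 (-0.77, 0.00437) and Mapk14 (-1.20, 1e-06) were called in the same directions. Cebpb (-0.39, 0.108) and Bhlhe40 (-0.58, 0.0588) were not called in mdx mice. Markers of other cell types moved with these values. In both genotypes smooth muscle markers were higher in EOM for 4 of 5, Schwann cell markers for 2 of 2, and lymphocyte markers lower for 1 of 4. In control mice fibroblast markers were higher in EOM for 4 of 8, macrophage markers for 3 of 13, endothelial markers for 1 of 7 and epithelium and gland markers for 1 of 4. In mdx mice endothelial markers were higher in EOM for 4 of 7 and epithelium and gland markers for 3 of 4, while macrophage markers were lower for 13 of 13 and fibroblast markers for 2 of 8. Skeletal muscle markers were higher in EOM for 1 of 6 in control mice. In mdx mice 3 of those 6 were higher and 1 was lower. The part of these cells was not tested.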

How the data were processed

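Members were the probe sets with a member as their single platform symbol (10276 non-control probe sets had 1 symbol, 363 several and 1993 were not listed). Members and lists were chosen with earlier results of these data known. Values are linear intensity as deposited by the authors, already scaled to a 2% trimmed mean of 1500.1 on all 20 arrays. For the software that made them, the sources used here give nothing. Each array was rescaled so that the 2% trimmed mean of 12588 non-control probe sets became 500. A floor of 50 was applied before taking log2. Probe sets with at least 200 on at least 5 arrays were tested.

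A single limma model (version 3.58.1, R 4.3.3; lmFit, then eBayes allowing a trend with intensity) covered all 4 groups without covariates, leaving 16 residual degrees of freedom, after it was tested on simulated data. P-values were adjusted by Benjamini-Hochberg per contrast and called at 5%. Values printed for dim members come from the same fit without the filter. Named genes were all member probe sets, up to 4 called genes of smallest adjusted p per list and contrast, markers bearing on a result, and the 5 genes most like Fos, of which no probe set passed the filter. Correlations used 100000 two-sided permutations within groups (SciPy 1.17.1, NumPy 2.4.6). Alternatives changed scaling, floor, filter, trend, weights, fitted samples, the replicate block and single arrays. The number of arrays limits the precision. Protein sequences were not used here.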

Additional observations from a re-analysis of the deposited data

Results flagged for a closer look

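Values of 1 array far from the other 4 of its group were looked for in every member probe set and group, with a rule that picks out about 1 in 20 groups by chance. Fos on control leg array 2 read 51.5, with the others between 141 and 184. Fosb on mdx leg array 4 read 520, with the others between 755 and 846. Junb 102362_i_at on control leg array 5 read 78.7, with the others between 23.0 and 53.2. Of those others 3 were under 50 and were set to 50 before the rule was applied, which narrowed their spread. Control leg array 1 stood apart on 2 Atf3 probe sets, at 1309 on 104155_f_at (others 362 to 524) and at 496 on 104156_r_at (others 46.0 to 86.6).

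On 2 dim probe sets the other 4 arrays were all under the floor of 50. Egr1 98216_f_at read 93.1 on control EOM array 1 (others 11.0 to 24.0) and 109 on mdx EOM array 3 (others 16.5 to 42.2). Myc read 70.9 on mdx EOM array 4 (others 10.5 to 44.4). The effect of mdx on Junb 102362_i_at differed between leg muscle and EOM by 2.05 on the log2 scale (limma adjusted p = 0.032). This probe set passed the filter only with its mdx leg arrays. The call was lost with no filter, without control leg arrays 1 and 4, and in 7 of 20 fits without 1 array.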

How the results depend on the processing

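The arrays limit what can be seen: dim members lie near the floor, and folds there are bounds. Only the fits run are covered. The leg calls of both Junb probe sets held in every fit that gave them a value. A stricter filter on dim signal dropped both, so it gave no value for them. Junb 102362_i_at passed the main filter only with its mdx leg arrays. The leg calls of Atf3 and Ier2 and both other Junb calls were lost in some fits.

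Same-numbered arrays deviated together with r between 0.0124 and 0.18 in leg muscle and between 0.0194 and 0.228 in EOM. The range was -0.0125 to 0.0517 between control muscles and -0.084 to 0.0815 between mdx muscles. An array correlated best with its own number in 3, 3, 1 and 1 of 5 pairs, in that order. What same-numbered arrays share beyond the number was not tested. With the replicate block 1351, 7, 458, 1351 and 1386 probe sets were called in leg muscle, in EOM, in the difference and between the control and mdx muscles. Members called were 4, 0, 1, 1 and 1, the fourth being Junb 102363_r_at (adjusted p = 0.0471). With that block Nr4a1 in leg muscle (adjusted p = 0.0519) and Klf6 between control muscles (0.0512) were no longer called. Gadd45g in the difference (0.0232), Irf1 (0.0254) and Rhob (0.0449) between control muscles and Hmox1 between mdx muscles (0.0147) were called, and these 4 are named after their values were seen. The counts of these lists became 2 early transcription factors in leg muscle, 2 other early genes in the difference, 8 other early genes and 6 early transcription factors between control muscles, and 5 AP-1 targets between mdx muscles.

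Members called in leg muscle became 1 with a filter at 500, which drops Junb and Ier2, and 2 with only the groups compared. Without 1 array they ran from 2 to 5. Probe sets called in EOM became 11 at a floor of 100, 3 with no filter and 11 with array weights, and ran from 3 to 11 without 1 array. Members in the difference became 0 with no filter and with a filter at 500, and ran from 0 to 2 without 1 array. Only the groups compared gave no value there. Between control muscles members became 1 with quantile normalization, 2 with array weights and 1 without control leg arrays 1 and 4, and ran from 0 to 1 without 1 array. Between mdx muscles they became 0 at a floor of 20 and with no filter, and 2 with array weights, with only the groups compared and without those arrays, and ran from 0 to 3 without 1 array. With Egr1 as the reference 1 relation passed, against 0 with Fos. The cause of these moves was not tested, apart from the probe sets that a filter drops.

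List counts moved as follows. In leg muscle the signalling list became 0 with no filter, no intensity trend or only the groups compared, and 2 with array weights, with probe sets of a gene averaged or without control leg arrays 1 and 4. Dimer partners became 2 with array weights or without those arrays, and Myc targets 1 with a filter at 500, only the groups compared or without those arrays. Other immediate early genes became 5 without those arrays. Without 1 array these lists ran from 0 to 2, 1 to 2, 1 to 2 and 6 to 8. AP-1 targets in EOM became 2 at a floor of 100, with no intensity trend or with array weights. In the difference AP-1 targets became 3 with no filter, other immediate early genes 2 with a filter at 500 or probe sets averaged, and Myc targets 1 with array weights. Without 1 array, the early genes ran from 1 to 2 and the early transcription factors from 0 to 1. Between control muscles dimer partners became 3 with no filter, a filter at 500 or without those arrays and 2 with only the groups compared, AP-1 targets 2 with no filter or without those arrays, and Myc targets 1 with array weights or without those arrays. Without 1 array they ran from 2 to 5, 2 to 4 and 0 to 1, and signalling from 1 to 5. Between mdx muscles, no filter gave 1 early transcription factor, 7 AP-1 targets and 1 Myc target, and only the groups compared gave 1 dimer partner. Without 1 array the lists ran from 1 to 5 (early transcription factors), 2 to 5 (early genes), 1 to 2 (dimer partners), 2 to 5 (AP-1 targets) and 1 to 2 (Myc targets).

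Signs turned only for small differences that were not called. Fosb in leg muscle was -0.024 with quantile normalization and -0.0048 with array weights, and ran from -0.041 to 0.15 without 1 array. Zfp36 in the difference was 0.028 without control leg arrays 1 and 4 and ran from -0.23 to 0.064 without 1 array. Atf3 104155_f_at between control muscles was -0.038 with quantile normalization and -0.0098 with a pseudocount of 50, and ran from -0.14 to 0.32 without 1 array. Without 1 array, EOM differences ran from -0.091 to 0.23 for Jun, -0.064 to 0.23 for Egr1 and -0.032 to 0.091 for Ier2, and the Egr1 difference of effects from -0.012 to 0.30.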
